A study of Saccharomyces cerevisiae with 9 samples.

Results

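The ratio of reads over a gene's promoter to reads over its gene body was compared between chromatin pulled down with Rvb1 or Rvb2 and the chromatin of the same strains before pulldown. Every one of the 7036 gene identifiers that has a read count in both the promoter and the gene body table was taken, and the ratio was log2 of the promoter count + 2 over the gene body count + 2 in each library. A value of 0 means equal counts in both windows, and a value of 1 means a promoter count about 2 times the gene body count. Of the 9 libraries, 6 enter the comparison. These are 2 Rvb1 pulldowns, 2 Rvb2 pulldowns, and as their inputs 1 library of the Rvb1 strain and 1 of the Rvb2 strain. The other 3, 2 Pgk1 pulldowns and the input of the Pgk1 strain, are given beside them. All are Saccharomyces cerevisiae of strain W303 grown at 30 °C and moved for 10 min into synthetic medium without glucose. In each strain a single protein, Rvb1, Rvb2 or Pgk1, carries a tandem affinity purification (TAP) tag that binds rabbit IgG. The inputs were starved in the same way and had no antibody. No unstarved cells were analysed here, so nothing below is a change on starvation, and whether replicate pulldowns are separate cultures is not stated in the labels.

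Rvb1 and Rvb2 are AAA+ ATPases that assemble with each other into rings. They are shared subunits of the INO80 and SWR1 chromatin remodelling complexes, which act on the nucleosomes flanking promoters, and they also work in the R2TP chaperone complex and in the assembly of small nucleolar ribonucleoproteins. In a yeast promoter a nucleosome-depleted region lies between the first positioned nucleosomes, and in this compact genome neighbouring genes that are transcribed away from each other often share it. Pgk1, phosphoglycerate kinase, is a cytoplasmic enzyme of glycolysis and stands here as the control for what IgG recovers.

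The summed count of both windows was 2255186 to 3562074 in the Rvb pulldowns, against 8740909 and 8911250 in their inputs. No library exceeded 1151 counts in a window, close to 1148, the number of different 75-base reads, counting both strands, with at least 1 base in 500 bp. Relative to this ceiling, the median promoter count was 13.7% to 23.0% in the Rvb pulldowns, against 53.6% and 54.4% in their inputs. The ceiling is inferred, as the treatment of duplicates is not stated, and differences from the inputs may be compressed by it. Over 22 ribosomal DNA identifiers the median count lay at this ceiling in both windows of the Rvb pulldowns and their inputs, and the median ratio was 0 in all 9 libraries.

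The typical gene had more reads over its promoter than over its gene body in each Rvb pulldown, and about as many in the inputs. The median log2 ratio over 7026 genes was 0.39 and 0.16 in the Rvb1 pulldowns and 0.25 and 0.083 in the Rvb2 pulldowns, against -0.015 and -0.027 in their inputs. Thus all 4 pulldowns stood above both inputs, with replicate 1 of each protein the higher one. The mean of these medians was 0.22 ± 0.13 (SD, n = 4) in the pulldowns and -0.021 ± 0.0087 (SD, n = 2) in the inputs. The difference was 0.24, with an exact two-sided permutation p of 0.133, which is the smallest that 15 arrangements of 4 against 2 libraries allow. The Pgk1 pulldowns, at 0.039 and -0.011, and the Pgk1 input, at -0.018, lay below the lowest Rvb pulldown.

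**Figure D1:**
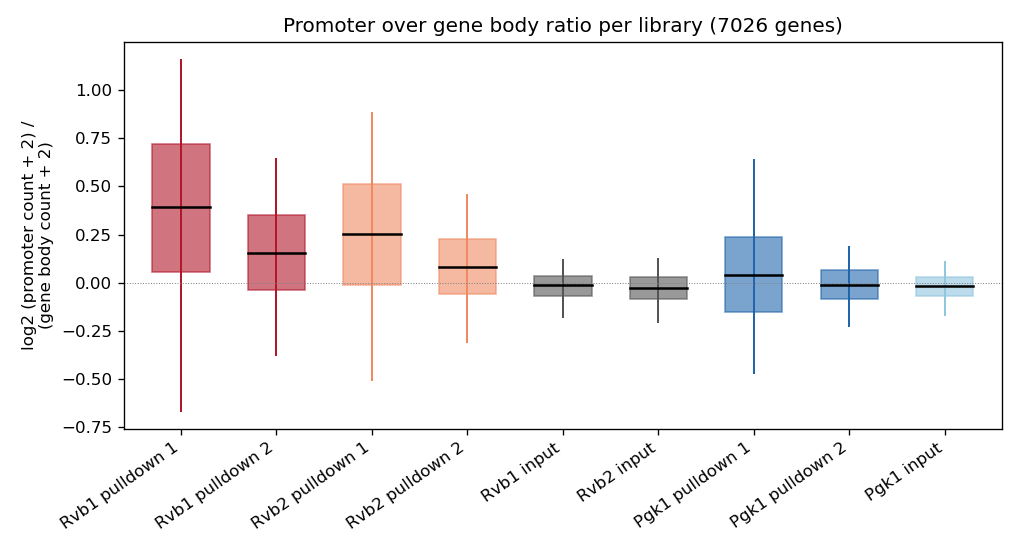
Log2 of the promoter count + 2 over the gene body count + 2 in each of the 9 libraries, over 7026 genes; the line is the median, the box spans the quartiles and the whiskers the 5th to 95th percentile. The medians of the Rvb pulldowns, 0.39, 0.16, 0.25 and 0.083, lie above those of all inputs and Pgk1 pulldowns, and their boxes are wider than those of the inputs.

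The spread between genes was also wider in the pulldowns. The SD of the ratio over genes was 0.54 and 0.32 for Rvb1 and 0.43 and 0.26 for Rvb2, against 0.15 in each input. Counting error at the median counts, taken without the ceiling, would give 0.14 and 0.16 for Rvb1 and 0.17 and 0.14 for Rvb2, against 0.082 and 0.081 in the inputs. The pulldowns were thus noisier in counting, and pulldowns and inputs both spread beyond it. The ceiling, which the inputs came nearer to, may narrow their spread, which was not tested. A ratio above 1 was reached by 692 and 28 genes in the Rvb1 pulldowns and by 186 and 20 in the Rvb2 pulldowns, against 5 and 6 in the inputs. Pgk1 replicate 1, the shallowest library, had an SD of 0.36 and 92 genes above 1, so a wide spread was not seen in Rvb pulldowns alone. Across the 7026 genes, which share library depth and the count ceiling and are not independent, ratios of different Rvb pulldowns had Pearson correlations of 0.67 to 0.87. Those of an Rvb pulldown with an Rvb input were 0.16 to 0.45, and those of an Rvb pulldown with a Pgk1 pulldown 0.17 to 0.51. High correlations were not seen among Rvb pulldowns alone, as the Rvb inputs had 0.86 with each other. The Pgk1 pulldowns had 0.52 with each other and 0.38 and 0.74 with the Pgk1 input.

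Tested gene by gene, higher ratios in the Rvb pulldowns outnumbered lower ones. A quasi-likelihood test in edgeR of the interaction between window and pulldown called 1682 of 7026 genes at a Benjamini-Hochberg adjusted p under 0.05, or 23.9%, with 1436 higher (20.4%) and 246 lower (3.5%). The median log2 difference over all genes was 0.25, and 3261 genes had an unadjusted p under 0.05. The ratio was above that of both inputs in all 4 pulldowns for 3640 genes (51.8%) and below it for 703 (10%). This fit gives both windows of a library 1 library size, so that a shift of all genes stays in the ratio. Scaled by TMM within each table, which moved the median of all genes by 0.27 to -0.018, 1684 genes were called with 716 higher and 968 lower. Of these, 960 were called under both scalings, 714 higher and 246 lower in both. The number of calls rested on both inputs and on single pulldowns: it was 9 without the Rvb1 input, 8 without the Rvb2 input or with both inputs averaged as 1 library, 20 without Rvb2 replicate 1, 66 without Rvb1 replicate 2, 2569 without Rvb1 replicate 1 and 3923 without Rvb2 replicate 2. limma on the log2 ratio called 0, with a smallest adjusted p of 0.0631 and 2654 genes at an unadjusted p under 0.05. All 1682 differences kept their sign in each of these fits except under TMM, where 1670 did. Of the 48 called genes that the rule for named genes takes, HXT6 and HXT7 were called in each of the 6 fits that leave out 1 library.

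The largest difference belonged to RQC1, which encodes a subunit of the ribosome quality control complex. Its promoter window held 854 and 480 counts in the Rvb1 pulldowns and 607 and 408 in the Rvb2 pulldowns, against 622 and 571 in the inputs. Its gene body held 220 and 161 counts in the Rvb1 pulldowns and 125 and 201 in the Rvb2 pulldowns, against 610 and 621 in the inputs. Although the inputs were sequenced more deeply, Rvb1 replicate 1 had the highest promoter count of these 6 libraries. The log2 ratio of RQC1 was 1.95, 1.56, 2.26 and 1.01 in the pulldowns, against 0.028 and -0.12 in the inputs. That its pulldowns all lay above both inputs is a condition of the rule that picks the largest differences. The Pgk1 pulldowns stood at 0.016 and 0.027. The log2 difference was 1.76 (SE 0.25, edgeR adjusted p = 0.0106).

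SWR1, the ATPase of the SWR1 complex, is transcribed away from RQC1, and both identifiers had the same promoter count in each of the 9 libraries, so their promoter windows hold the same reads. The gene body of SWR1 differed from that of RQC1, with 617, 329, 366 and 297 counts in the 4 Rvb pulldowns, against 630 and 648 in the inputs. In log2 CPM (a window's count scaled to the same total of reads in both windows for every library), the shared promoter was higher in the pulldowns by 1.58. On the same scale the gene body of SWR1 was higher by 0.93 and that of RQC1 lower, at -0.17. The log2 ratio of SWR1 was 0.47, 0.54, 0.73 and 0.46 in the pulldowns, against -0.018 and -0.18 in the inputs, and the difference was 0.65 (SE 0.079, adjusted p = 0.00805). So beside the same promoter, the pulldowns were above the inputs in the gene body window of SWR1 and not in that of RQC1. In all, 44 identifiers shared their promoter counts, and 34 their gene body counts, with another identifier in every library.

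The next largest differences were in genes of unrelated roles. SLK19, a protein of the kinetochore and spindle midzone, had log2 ratios of 1.94, 1.41, 1.80 and 0.76 in the pulldowns, against 0.032 and 0.061 in the inputs (difference 1.47, SE 0.26, adjusted p = 0.0175). DUS3, a tRNA dihydrouridine synthase, differed by 1.35, SSK2, a kinase of the osmotic stress pathway, by 1.33, and ANP1, a subunit of a Golgi mannosyltransferase, by 1.32. The ribosomal protein gene RPL43A differed by 1.30, RBS1, which acts in RNA polymerase III assembly, by 1.28, XRN1, the cytoplasmic exonuclease of mRNA decay, by 1.26, and RBG1, a GTPase that binds ribosomes, by 1.24. The edgeR adjusted p of these 7 genes was 0.0179 to 0.0267. In every one of them replicate 1 of each protein was above replicate 2. That all 4 pulldowns were above both inputs was set by the rule that picked these genes. Without Rvb1 replicate 2, Rvb2 replicate 1 or either input, none of these genes was called, with adjusted p values up to 0.230. Pgk1 ratios stayed near the inputs for XRN1, at -0.068 and 0.047, but reached 0.50 in Pgk1 replicate 1 for DUS3 and ANP1 and 0.53 for SLK19. YER137C, an uncharacterized gene, had 1.75, 1.40, 1.90 and 1.0 in the Rvb pulldowns, against 0.10 and 0.17 in the inputs, a called difference of 1.38. Its ratio was 2.05 and 0.37 in the Pgk1 pulldowns, against 0.26 in the Pgk1 input, so the highest of all its values was in a control pulldown.

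**Figure D2:**
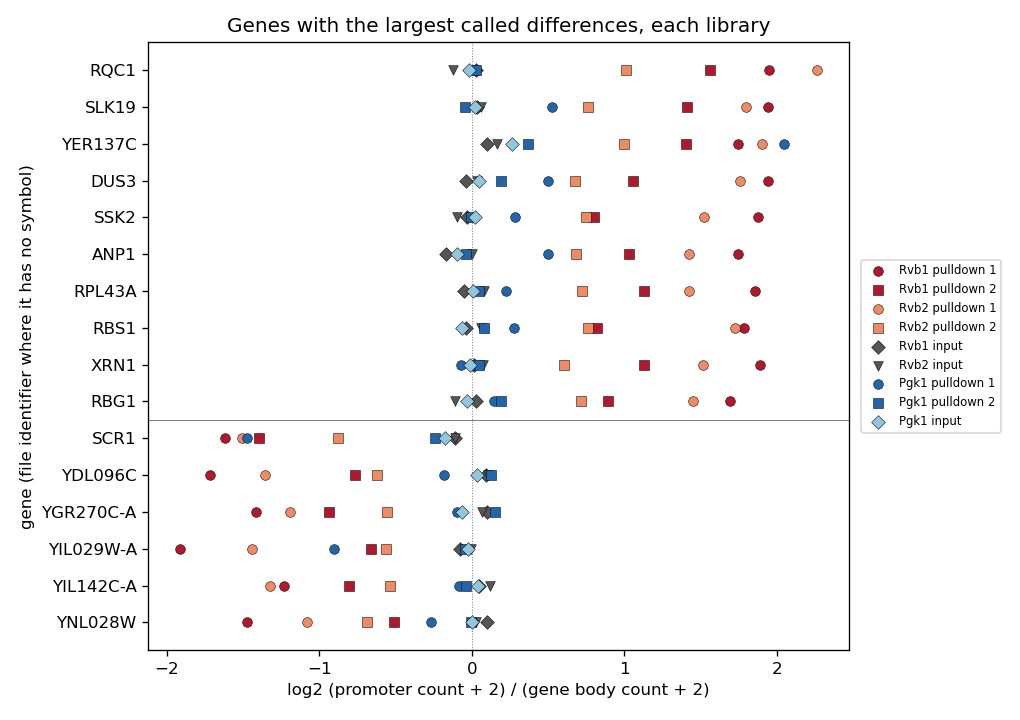
Log2 ratio of promoter to gene body counts in each library for the 10 called genes with the largest higher difference and the 6 with the largest lower one, each symbol being 1 library. RQC1 reaches 2.26 in Rvb2 replicate 1 and both its inputs lie near 0, while Pgk1 replicate 1 lies among the Rvb pulldowns for SCR1 and YIL029W-A and above them for YER137C.

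Lower ratios had a different make-up. SCR1, the RNA of the signal recognition particle, which RNA polymerase III transcribes, had the lowest called value. Its gene body window held 733 and 417 counts in the Rvb1 pulldowns and 531 and 461 in the Rvb2 pulldowns, against 675 and 724 in the inputs, and its promoter window 238, 157, 186 and 250 in the pulldowns, against 625 and 671 in the inputs. The log2 ratio was -1.61, -1.40, -1.50 and -0.88 in the pulldowns, against -0.11 in both inputs, a difference of -1.25 (SE 0.16, adjusted p = 0.00998). In log2 CPM the gene body window was higher in the pulldowns by 1.24, while the promoter window lay at -0.0009. The Pgk1 pulldowns stood at -1.47 and -0.24, against -0.18 in the Pgk1 input, so Pgk1 replicate 1 fell among the Rvb pulldowns here.

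The other 5 of the lowest were open reading frames (ORFs) with no entry in the R64 reference table used for names. YDL096C, YGR270C-A, YIL029W-A, YIL142C-A and YNL028W had log2 differences of -1.23, -1.13, -1.10, -1.07 and -1.03, with edgeR adjusted p values of 0.0179 to 0.0416. For 3 of them, whose flanking genes in the reference table are transcribed away from each other, the flanking genes were looked at as well, a choice made after the values were seen. YDL096C lies between PMT1 and RPN6. Its gene body window held 507, 261, 292 and 284 counts in the pulldowns, against 596 and 619 in the inputs. The promoter window of PMT1 held 563, 269, 313 and 285 counts in the pulldowns, against 612 and 638 in the inputs, and that of RPN6 566, 280, 326 and 281, against 585 and 615. The ORF's gene body counts thus followed those of its neighbours' promoters, and both neighbours were called higher, PMT1, a protein mannosyltransferase, by 0.56 and RPN6, a proteasome lid subunit, by 0.66. YIL142C-A, between CCT2 and SSL2, had 533, 279, 326 and 275 gene body counts in the pulldowns, against 652 and 639 in the inputs. The SSL2 promoter had 534, 279, 328 and 275, against 653 and 638, so these windows may hold largely the same reads. The CCT2 promoter was less near, with 447, 241, 254 and 262, against 611 and 619. YNL028W lies in the same way between CRZ1 and KTR5, and its gene body had 468, 219, 267 and 294 counts in the pulldowns. Beside it, the KTR5 promoter had 507, 230, 271 and 294 and the CRZ1 promoter 440, 222, 235 and 236. SSL2, a helicase subunit of TFIIH, was called higher by 0.72 and KTR5, a mannosyltransferase, by 0.85, while CCT2 at 0.25 and CRZ1 at 0.55 were not called (adjusted p = 0.0695 and 0.0668).

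Genes called higher, which were chosen by the ratio of these same counts, had a promoter median above that of all genes. Their gene body median was near that of all genes. Each window's level was set in log2 CPM of all reads in both windows, as the mean of the 4 pulldowns minus that of the 2 inputs. Over all 7026 genes the median was 0.014 at promoters and -0.26 at gene bodies, and 30.7% of genes had the promoter above and the gene body below 0. The 1436 genes called higher had medians of 0.40 at the promoter and -0.28 at the gene body. Of them, 942 (65.6%) were of that kind, 311 were above 0 in both windows and 183 below 0 in both. The choice by ratio in part sets that share and the medians, also for the genes called lower. The 246 called lower had medians of -0.084 at the promoter and 0.54 at the gene body. Of these, 117 had the promoter below and the gene body above 0, and 108 had both above. Because CPM shares a fixed total, these values give each window's share of the recovered reads and not an amount of bound protein.

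**Figure D3:**
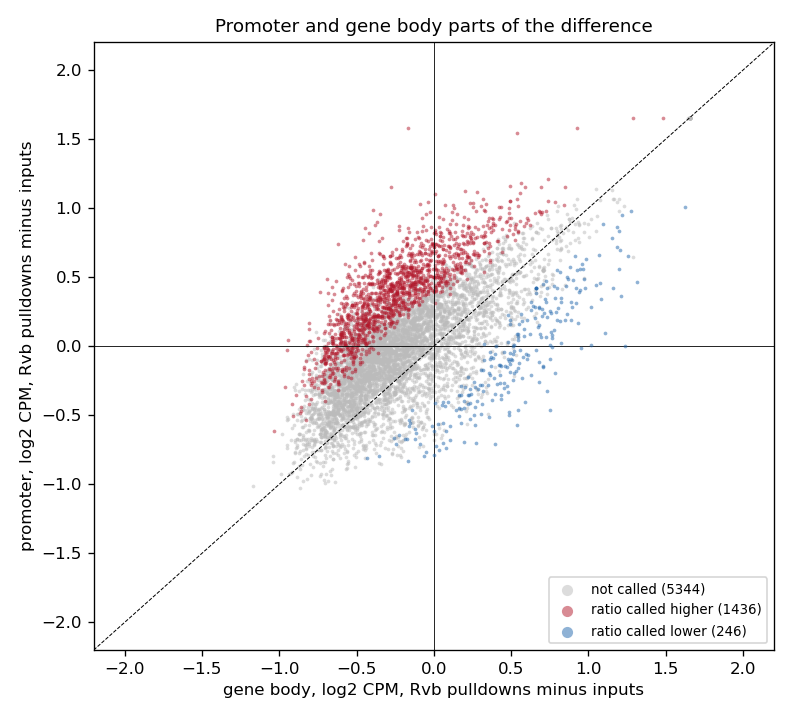
Log2 CPM difference, Rvb pulldowns minus inputs, of the promoter window (vertical) against the gene body window (horizontal), 1 point per gene, coloured by the call on the ratio; the dashed line marks equal change. The 1436 higher calls lie above the line with medians of 0.40 at the promoter and -0.28 at the gene body, where all genes have 0.014 and -0.26. The 246 lower calls lie below it with a median of 0.54 at the gene body. Calls were made on the ratio of these windows, which in part sets their medians.

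Protein-coding genes had more higher than lower calls, while the other classes had medians at or below 0. The difference between classes was not tested. Among 5894 protein-coding genes of the reference table, 1343 were called higher (22.8%, against 20.4% of all genes) and 80 lower (1.36%, against 3.5%). The median log2 difference was 0.30. The median ratio of this class was 0.47 and 0.19 in the Rvb1 pulldowns and 0.30 and 0.10 in the Rvb2 pulldowns, against -0.018 and -0.031 in the inputs. The 669 ORFs without an entry in the table had 49 genes higher (7.32%) and 96 lower (14.3%), with a median difference of -0.12. Their ratios were -0.20, -0.069, -0.15 and -0.053 in the pulldowns, against 0.0063 in each input. For both classes all pulldowns stood on one side of both inputs, with an exact permutation p of 0.133 that cannot be smaller here. With TMM scaling the median of protein-coding genes was 0.027, with 683 higher and 467 lower, against 716 and 968 of all 7026 genes. The median of the unlisted ORFs was then -0.37.

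Nuclear tRNA genes, which RNA polymerase III transcribes from elements inside the gene, had calls in both directions. Of 274, 36 were called higher (13.1%, against 20.4% of all genes) and 42 lower (15.3%, against 3.5%), with a median difference of -0.18. With TMM scaling 13 were called higher and 135 lower, against 716 and 968 of all 7026 genes. The median was then -0.44, and the near-equal numbers of calls hold under the common library size only. Their median ratio was -0.32 and -0.16 in the Rvb1 pulldowns and -0.24 and -0.095 in the Rvb2 pulldowns, against 0 and -0.031 in the inputs. The Pgk1 pulldowns had -0.14 and 0.015 for these genes, against -0.0033 in the Pgk1 input. A tRNA gene is shorter than the 500 bp of a window, so both windows can hold reads from the same gene and from its neighbours. The clearest higher calls were tA(UGC)A, for alanine, with ratios of 1.10, 1.11, 1.29 and 1.05 in the Rvb pulldowns, against 0.33 and 0.30 in the inputs, and tN(GUU)P, for asparagine, with 1.13, 0.93, 1.17 and 0.95, against 0.12 and 0.13. For both, the Pgk1 pulldowns were high as well, at 1.05 and 0.71 for tA(UGC)A, against 0.26 in the Pgk1 input, and at 1.43 and 0.89 for tN(GUU)P, against 0.25 in that input. The Rvb difference over own inputs exceeded that of Pgk1 by 0.22 (SE 0.18) and 0.054 (SE 0.24), neither of which passed the test.

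Genes for small nucleolar and small nuclear RNAs, whose ribonucleoproteins Rvb1 and Rvb2 help to assemble, had a median difference of -0.010 over 81. Of these, 1 was called higher (1.23%, against 20.4% of all genes) and 8 lower (9.88%, against 3.5%). With TMM scaling 0 were called higher and 28 lower, against 716 and 968 of all 7026 genes, with a median of -0.28. snR17a, the U3 RNA of ribosomal RNA processing, had ratios of -0.49, -0.49, -0.58 and -0.64 in the Rvb pulldowns, against -0.013 and -0.051 in the inputs, a difference of -0.52 (adjusted p = 0.0154). Its Pgk1 pulldowns were at -0.76 and -0.30, against -0.031 in the Pgk1 input. The 55 identifiers of the mitochondrial genome, which holds no nucleosomes, had 4 called higher (7.27%) and 15 lower (27.3%), with a median difference of -0.14. For these identifiers TMM scaling gave 0 higher and 31 lower, against 716 and 968 of all 7026 genes, with a median of -0.39. Their ratios were -0.13, -0.17, -0.26 and -0.13 in the Rvb pulldowns, against -0.076 and -0.048 in the inputs, and -0.19 and -0.12 in the Pgk1 pulldowns, against -0.014 in the Pgk1 input.

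**Figure D4:**
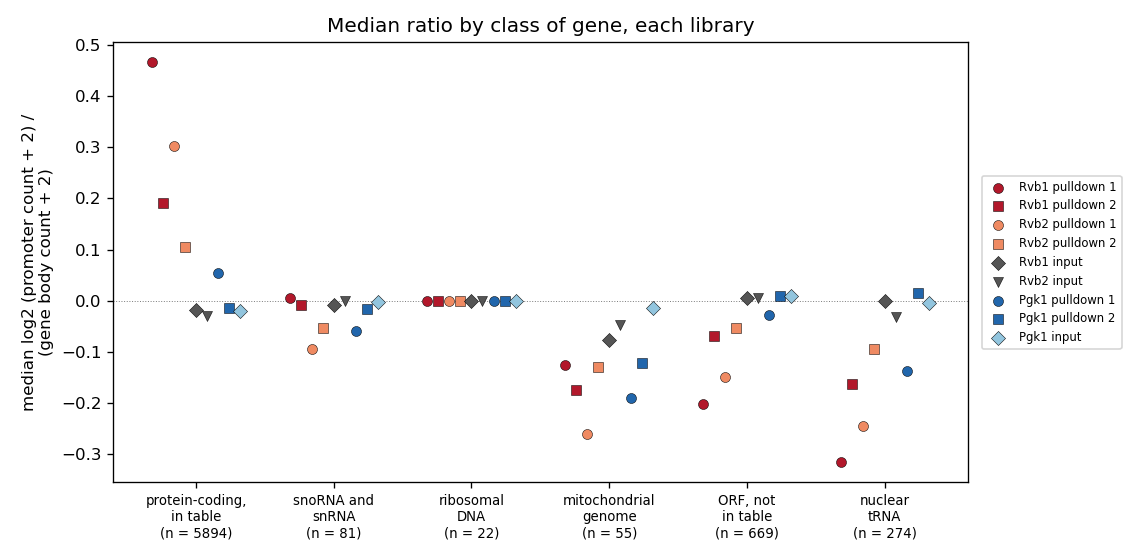
Median log2 ratio of promoter to gene body counts in each library, for 6 classes of gene, each symbol being 1 library. Protein-coding genes have all 4 Rvb pulldowns between 0.10 and 0.47, above the inputs, while unlisted ORFs and nuclear tRNA genes have them between -0.32 and -0.053, below the inputs, and ribosomal DNA lies at 0 in every library.

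Genes with a divergent and with a tandem upstream neighbour both had higher ratios in the pulldowns. Of the protein-coding genes, 3034 have an upstream neighbour transcribed away from them and 2851 one transcribed in the same direction. The first had a median difference of 0.32, with 756 higher (24.9%, against 20.4% of all genes) and 56 lower (1.85%, against 3.5%). The second had 0.27, with 584 higher (20.5%) and 24 lower (0.842%). The median ratio of genes with a divergent neighbour was 0.51, 0.21, 0.33 and 0.12 in the pulldowns, against -0.015 and -0.027 in the inputs, and that of genes with a tandem neighbour 0.42, 0.17, 0.27 and 0.096, against -0.022 and -0.034. Each pulldown was thus higher for the first kind, and both kinds lay above the inputs. Of 757 genes called higher with a divergent neighbour of any class, 282 had that neighbour called higher too, making 141 pairs. Of all protein-coding genes with a divergent neighbour 24.9% were called higher, and whether the pairs exceed that share was not tested. Both genes of a pair may share promoter reads and so are not independent. Without identifiers that have a divergent upstream neighbour, 860 of 3970 were called, 673 higher and 187 lower, with a median of 0.20. Of the 868 main calls in this set, 856 were called again. The set is not limited to protein-coding genes and also holds unlisted ORFs and tRNA genes. Its median is therefore not comparable with the 0.27 of protein-coding genes with a tandem neighbour.

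Genes of storage carbohydrates and genes that glucose represses had the highest medians of the 15 lists. The gene lists were drawn up with earlier results of these data known, so a list's count is set only beside the share of all genes called and is no test. Of 22 genes of glycogen and trehalose metabolism, 10 were called higher (45.5%, against 20.4% of all genes) and 0 lower, and the median difference was 0.44, against 0.25 over all genes. The median ratio of the list was 0.61, 0.28, 0.35 and 0.14 in the pulldowns, against -0.080 and -0.084 in the inputs. With TMM scaling, 3 of the 22 were called higher, against 716 of all 7026 genes, and the median was 0.17, against -0.018 over all genes.

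GAC1, which directs a protein phosphatase to glycogen synthase, had ratios of 0.73, 0.36, 0.55 and 0.26 in the Rvb pulldowns, against -0.39 and -0.42 in the inputs, a difference of 0.89 (SE 0.15, adjusted p = 0.0166). All pulldowns were above 0 and both inputs well below it, and the Pgk1 libraries, at -0.28 and -0.28 in the pulldowns and -0.33 in the input, were below 0 as well. GLC3, the glycogen branching enzyme, had 0.32, 0.35, 0.29 and 0.41 in the Rvb pulldowns, against -0.061 and -0.14 in the inputs, a difference of 0.44 (SE 0.064, adjusted p = 0.0110). GSY1, a glycogen synthase, was called higher by 0.37 and GPH1, glycogen phosphorylase, by 0.31. GSY2, the other glycogen synthase, was called higher by 0.65. At GLC3, GSY1 and GPH1 both windows were above the inputs in log2 CPM, by 0.93 and 0.49, 0.88 and 0.53, and 0.91 and 0.61 at promoter and gene body. With TMM scaling these 3 were not called, at 0.17, 0.086 and 0.032. Pgk1 replicate 1 had ratios of -0.89, -0.85 and -0.67 for them. For trehalose, the synthase subunits TPS1 and TPS3 were called higher by 0.48 and 0.62 and the neutral trehalase NTH1 by 0.58.

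Genes that glucose represses, with their regulators, had 9 of 26 called higher (34.6%) and 0 lower and a median difference of 0.44, or 0.17 with TMM scaling. The repressor gene MIG1 had ratios of 0.94, 0.63, 0.81 and 0.43 in the pulldowns, against -0.038 and -0.17 in the inputs, a difference of 0.82 (SE 0.13, adjusted p = 0.0160). Its Pgk1 pulldowns were at -0.60 and -0.14, on the other side of 0. MDH2, a cytosolic malate dehydrogenase, was called higher by 0.83, FBP1, the gluconeogenic fructose bisphosphatase, by 0.75 (0.62 in Pgk1 replicate 1), SNF1, the kinase of glucose derepression, by 0.70, and MLS1, malate synthase, by 0.59.

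Glycolysis and fermentation differed from these lists in having calls in both directions. Of 21 genes, 5 were called higher and 5 lower (23.8% each, against 20.4% and 3.5% of all genes), and the median difference was -0.013. Higher calls were PFK1 and PFK2, the subunits of phosphofructokinase, at 0.68 and 0.66, PGI1 at 0.46, HXK2 at 0.44 and PDC1, pyruvate decarboxylase, at 0.47. Lower calls were TDH3 and TDH2, glyceraldehyde phosphate dehydrogenases, at -0.46 and -0.30, ENO1, an enolase, at -0.32, GLK1, glucokinase, at -0.31, and PGK1 at -0.26. PGK1, which is also the tagged gene of the control strain, had ratios of -0.42, -0.32, -0.37 and -0.44 in the Rvb pulldowns, against -0.085 and -0.18 in the inputs, and -0.95 and -0.38 in the Pgk1 pulldowns, against -0.15 in the Pgk1 input. At PGK1 both windows were above the inputs in log2 CPM, the promoter by 0.66 and the gene body by 0.91. HXK1, the hexokinase, stood at -0.21 and did not pass (adjusted p = 0.0648). With TMM scaling 2 genes of this list were called higher and 11 lower, against 716 and 968 of all 7026 genes. Near-identical copies such as TDH2 and TDH3 can share reads.

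Among 19 hexose transporter and sensor genes, 4 were called higher (21.1%) and 3 lower (15.8%), against 20.4% and 3.5% of all genes. HXT6 and HXT7, high-affinity glucose transporters that are near-identical copies, had the smallest adjusted p of all named genes. HXT6 had ratios of -0.95, -1.16, -1.18 and -1.20 in the Rvb pulldowns, against -0.20 and -0.35 in the inputs, a difference of -0.84 (SE 0.075, adjusted p = 0.00242). HXT7 had -0.85, -1.03, -0.90 and -0.83, against -0.28 and -0.33, a difference of -0.60 (SE 0.052, adjusted p = 0.00242). Their gene bodies held 567 to 802 counts in the Rvb pulldowns, against 778 to 857 in the inputs, and in log2 CPM these windows were higher by 1.31 and 1.25. The Pgk1 pulldowns had -1.56 and -0.75 for HXT6 and -1.27 and -0.60 for HXT7, against -0.31 and -0.34 in the Pgk1 input. Set against Pgk1 over own input, the differences were -0.017 (SE 0.28) and -0.013 (SE 0.23). The sensor gene SNF3 was called higher by 0.61 and HXT5, a transporter of starved cells, by 0.49.

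General stress genes had 6 of 26 called higher (23.1%) and 1 lower (3.85%), close to the 20.4% and 3.5% of all genes, with a median difference of 0.29. MSN4, a zinc finger activator of stress genes, had ratios of 1.15, 0.75, 1.10 and 0.78 in the pulldowns, against 0.0022 and -0.0043 in the inputs, a difference of 0.96 (SE 0.13, adjusted p = 0.0106). Pgk1 replicate 1 reached 0.43 for this gene. The related MSN2 was called higher by 0.73, GIS1, a regulator of post-diauxic genes, by 0.93 and the repressor XBP1 by 0.70. CTT1, the cytosolic catalase and a target of these regulators, was called higher by 0.35. HOR7 was called lower by -0.36.

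Chaperone genes had 4 of 28 called higher (14.3%, against 20.4% of all genes) and 2 lower (7.14%, against 3.5%), with a median difference of 0.24 that became -0.024 with TMM scaling. AHA1, a cochaperone of Hsp90, was called higher by 0.73 and HSP10, the mitochondrial cochaperonin, by 0.48. SSA1 and SSA2, cytosolic Hsp70 genes with near-identical sequence, were called lower, at -0.43 and -0.37. The heat shock genes HSP12, HSP26, HSP30 and HSP104 stood at 0.38, 0.36, 0.31 and 0.030 and none was called, with adjusted p values of 0.0566 to 0.817. For HSP104, the disaggregase, ratios of -0.014, -0.012, -0.20 and -0.23 in the pulldowns overlapped the inputs, at -0.12 and -0.17, and the sign turned with TMM scaling (-0.25) and without Rvb1 replicate 1 (-0.013).

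Of 137 cytosolic ribosomal protein genes, 31 were called higher (22.6%, near the 20.4% of all genes) and 1, RPS8B, lower, and the median difference was 0.38, or 0.11 with TMM scaling. The median ratio of the list was 0.61, 0.18, 0.53 and 0.15 in the Rvb pulldowns, against -0.014 and -0.0089 in the inputs, and 0.38 and -0.020 in the Pgk1 pulldowns, against -0.019 in the Pgk1 input. Pgk1 replicate 1 thus lay between replicates 1 and 2 of both Rvb proteins. RPL43A led the list, and its Pgk1 ratios were low, at 0.22 and 0.049. Many ribosomal protein genes are pairs of near-identical copies whose reads can be split between them. Of 34 ribosome biogenesis genes 10 were called higher (29.4%) and 0 lower, with a median difference of 0.35, or 0.077 with TMM scaling. HAS1, a helicase of ribosome assembly, had ratios of 1.43, 1.10, 0.99 and 0.42 in the pulldowns, against -0.11 and -0.17 in the inputs, a difference of 1.13 (SE 0.22, adjusted p = 0.0214). NOP14, YTM1 and RRP12 were called higher by 1.19, 1.08 and 1.08. Pgk1 replicate 1 was also high at HAS1, NOP14, YTM1 and RRP12, with ratios of 0.48, 0.36, 0.94 and 0.71.

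Genes that encode the partners of Rvb1 and Rvb2 had a list median below that of all genes. Of 31 genes for subunits of INO80, SWR1, R2TP and related complexes, 5 were called higher (16.1%, against 20.4% of all genes) and 0 lower, and the median difference was 0.17, or -0.11 with TMM scaling. The called genes were SWR1, YAF9 at 0.64, INO80 at 0.64, VPS72 at 0.51 and BDF1 at 0.45. RVB2 had ratios of 0.59, 0.38, 0.46 and 0.15 in the pulldowns, against 0.054 and 0.014 in the inputs, a difference of 0.37 (SE 0.14) that did not pass (adjusted p = 0.0793). RVB1 had 0.29, 0.32, 0.22 and -0.0072, against 0.21 and -0.0071, which overlap, and its difference was 0.11 (SE 0.14, adjusted p = 0.550).

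**Figure D5:**
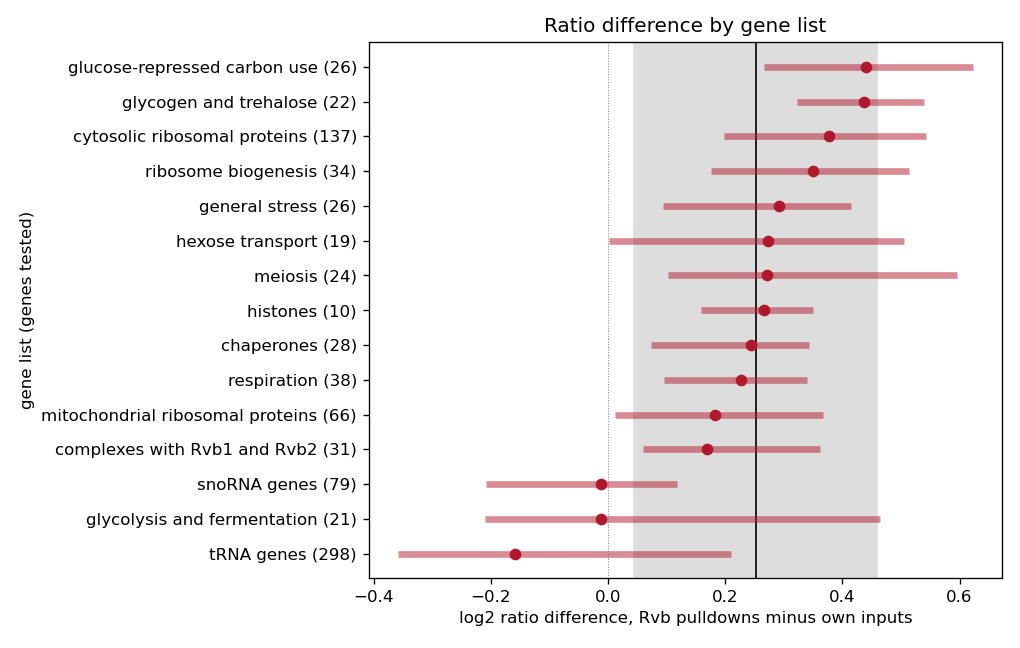
Log2 difference of the promoter to gene body ratio, Rvb pulldowns minus own inputs, for 15 gene lists; the point is the median over genes and the bar spans the quartiles, beside the median (line) and quartiles (grey band) of all 7026 genes. Glycogen and trehalose genes and glucose-repressed genes have medians of 0.44, against 0.25 for all genes, while glycolysis and snoRNA genes lie near 0; with TMM scaling every median is lower by 0.26 to 0.28.

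With each protein set against the inputs by itself, the number of calls depended on the fit and on single libraries. In a fit of the 6 libraries with 3 groups, Rvb1 pulldowns differed from the Rvb inputs at 2133 genes (30.4%), 1837 higher (26.1%) and 296 lower (4.21%). Rvb2 pulldowns differed from them at 24 genes (0.342%), 15 higher (0.213%) and 9 lower (0.128%), and 1572 had an unadjusted p under 0.05. For Rvb1 and for Rvb2 the counts were 1269 and 313 in DESeq2, 0 and 0 in limma, 7 and 6 with the tagged strain as a block, 8 and 7 with the inputs averaged, and 4553 and 3151 with the pulldown number as a block. Without 1 library they were 8 to 4309 for Rvb1 and 1 to 1251 for Rvb2. Without Rvb1 replicate 1 they were 9 and 1251, and without Rvb1 replicate 2 they were 4309 and 1228. Without Rvb2 replicate 1 they were 2529 and 1, without the Rvb1 input 8 and 6, and without the Rvb2 input 9 and 8. The median difference was 0.31 for Rvb1 and 0.19 for Rvb2. The difference between the proteins was tested by itself: edgeR called 0 genes (0%), with 294 at an unadjusted p under 0.05, DESeq2 called 0 with 65, and limma 0 with 284. For RQC1 the values were 1.84 (SE 0.30) for Rvb1 and 1.67 (SE 0.31) for Rvb2, a difference of 0.16 (SE 0.34, adjusted p = 0.897). For HAS1 they were 1.45 and 0.82, a difference of 0.62 (SE 0.22, adjusted p = 0.768). Both comparisons share the inputs, and a p that misses the threshold does not show that the proteins act alike.

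Set against the Pgk1 pulldowns, each over its own input, the Rvb pulldowns had the larger shift in the median, and no single gene passed in edgeR. The median ratio minus that of the own input was 0.41 and 0.17 for Rvb1 and 0.28 and 0.11 for Rvb2, against 0.056 and 0.0063 for Pgk1. All 4 Rvb values were above both Pgk1 values, and the difference of the means was 0.21, with an exact two-sided permutation p of 0.133, again the smallest possible. Both pulldowns of a strain share 1 input here, while the permutation treats their values as independent. Gene by gene, edgeR called 0 of 7034 genes (0%), with 641 at an unadjusted p under 0.05, 566 of them higher in Rvb. DESeq2 and limma called 1 each. The difference was 1.71 (SE 0.44) for RQC1, 0.69 (SE 0.17) for SWR1, 1.13 (SE 0.28) for MIG1 and 0.81 (SE 0.26) for GLC3, each with an adjusted p of 0.514. Only 1 input and 2 unlike pulldowns stand on the Pgk1 side.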

How the data were processed

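Chromatin immunoprecipitation and input DNA were sequenced single-end over 75 cycles on a NextSeq 500, per the labels. The authors deposited raw read counts per gene identifier, in 1 table for promoters and 1 for gene bodies; FastQC, Bowtie2, SAMtools, Picard, deepTools and bedtools are named, per the submitters' processing notes. The build, the placement of the windows, the treatment of duplicates and of multiply mapped reads, and the roles of the tools are not stated in labels or files. Of 7036 identifiers, 6000 matched the R64 reference table, used for names, classes and neighbours only.

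Identifiers with a mean of at least 10 counts in each window were tested with edgeR 4.0.16 (R 4.3.3): 1 quasi-likelihood fit held the promoter and gene body counts of each gene with library as a block and 1 library size per library, and tested the window by group interaction, with 4 residual degrees of freedom and Benjamini-Hochberg adjustment over all identifiers. Standard errors derive from the test's F. DESeq2 1.42.0 and limma 3.58.1 were alternatives. The fits were also run on simulated counts with the same spread set for every library and no ceiling. Those settings differ from the data, so these runs do not bear on the number of calls. Other alternatives were the scaling, filters, pseudocount, ceiling correction, blocks, inputs and subsets of genes named in the closing section. The p-values rest on how these libraries vary among themselves, and that variation may be technical. Both Rvb inputs, of different strains, differed by less than Poisson noise but by more than counting under the ceiling gives (chi-square per degree of freedom 0.607 at promoters, where 0.458 is calculated), and were kept as separate libraries.

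Named genes are the 10 largest higher and 6 largest lower called differences with all 4 pulldowns on one side of both inputs and a mean of at least 20 counts, 13 chosen genes, and 2 per list by lowest p; the comparisons of Rvb1 with Rvb2 and with Pgk1 added none, having no calls. Other called members of a list are named from it after their values were seen. The members, lists and rule were chosen with earlier results of these data known.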

Additional observations from a re-analysis of the deposited data

Results flagged for a closer look

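The ratio of HXT6 in Rvb1 replicate 1, -0.95, stood apart from the other Rvb pulldowns, which had -1.16, -1.18 and -1.20. Its gap to the nearest of them was 0.856 of the range of the 4, above Dixon's 95% critical value for 4 samples. Of 56 groups of 4 pulldowns examined, this was the only one past that value, and chance alone puts about 1 in 20 groups past it.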

How the results depend on the processing

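With the 4 Rvb pulldowns against their inputs, where 1682 genes were called, the count was 0 in limma with a pseudocount of 2, 0.5 or 8, 686 with the tagged strain as a block, 3602 with all 3 inputs, 8 with the Rvb inputs averaged as 1 library and 860 without genes that have a divergent upstream neighbour. It was 8 to 3923 when 1 library was left out. For Rvb1 alone, at 2133, it was 1269 in DESeq2, 0 in limma with each pseudocount, 7 with the strain block, 3940 with all 3 inputs, 8 with averaged inputs, 1138 without divergent neighbours and 8 to 4309 without 1 library. For Rvb2 alone, at 24, it was 313 in DESeq2, 4 with TMM, 0 in limma with each pseudocount, 3 after correction for the ceiling, 6 with the strain block, 515 with all 3 inputs, 7 with averaged inputs, 11 for genes of like input counts and 1 to 1251 without 1 library. Rvb1 against Rvb2 stayed at 0 in every alternative run. Rvb against Pgk1, at 0, had 1 call in DESeq2, 1 in limma, 2 in limma with a pseudocount of 0.5, 1 after correction for the ceiling and 0 to 3 without 1 library, the 3 being without Pgk1 replicate 2. Without the Pgk1 input it has no value. The fits against the inputs without divergent neighbours held 3970 genes instead of 7026. With the 4 Rvb pulldowns, 856 of the 868 main calls among these genes were called again. The cause of the other differences was not tested.

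With the replicate number as a block, the 3 counts against the inputs were 4477, 4553 and 3151. The deviations of same-numbered pulldowns had correlations of 0.59 between Rvb1 and Rvb2, 0.27 between Rvb1 and Pgk1 and 0.29 between Rvb2 and Pgk1. Replicate 1 of each protein also had the higher median ratio and the wider spread over genes. There are only 2 numbers and nothing in the labels on a shared batch, and whether same-numbered pulldowns are paired was not tested.

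The median ratio of the pulldowns minus the inputs, 0.24, was 0.18 to 0.29 in the 16 alternatives run on it, 1 of which, protein-coding genes only, was added after seeing the data. TMM turned the sign of RVB1 to -0.17 and of HSP104 to -0.25. Over fits without 1 library, RVB1 ranged from -0.00076 to 0.21 and HSP104 from -0.013 to 0.073, the negative values being without the Rvb2 input and without Rvb1 replicate 1. The lower counts of the pulldowns limit how small a difference can be seen, and the inferred ceiling on window counts may do so too.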

Other observations

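Lists with medians near that of all genes, 0.25, held some called genes as well. Of 24 meiosis genes, 3 were called higher (12.5%, against 20.4% of all genes) and 0 lower, with a median difference of 0.27 that was 0.0075 with TMM scaling. SPO11, the meiotic double-strand break protein, had ratios of 1.27, 0.86, 0.77 and 0.54 in the Rvb pulldowns, against 0.094 and -0.16 in the inputs, with 0.76 in Pgk1 replicate 1. Of 10 histone genes, 2 were called higher (20%), HTZ1, the variant H2A.Z that the SWR1 complex deposits, by 0.41 and HTA2 by 0.36, and the list median of 0.27 was -0.011 with TMM scaling.

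Of 38 respiration genes, 4 were called higher (10.5%) and 1 lower, with a median of 0.23 that was -0.046 with TMM scaling. ATP15, a subunit of the mitochondrial ATP synthase, was the lower one, with -0.57, -0.32, -0.32 and -0.40 in the Rvb pulldowns, against 0.023 and 0.070 in the inputs. Of 66 mitochondrial ribosomal protein genes, 11 were called higher (16.7%) and 1 lower, with a median of 0.18 that was -0.095 with TMM scaling. RSM26 had 0.85, 0.65, 0.85 and 0.66 in the Rvb pulldowns, against 0.16 and 0.030 in the inputs, and 1.15 in Pgk1 replicate 1.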
